A study of Mus musculus with 30 samples.

Results

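The genes described here encode the translation initiation and elongation factors of the mouse, their regulatory kinases and binding proteins, and the methyltransferases that modify the elongation factors. They were chosen by annotation alone, as every protein-coding gene whose symbol begins with Eif1 to Eif6 or with Eef1 or Eef2. This gave 64 of the 30952 genes in the expression table, of which 17889 were protein-coding. Another 5 genes fitted the symbol pattern but were not protein-coding and were left out. Eef1a2 and Eif2s3y were not analysed here.

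RNA was taken from microglia and astrocytes sorted from spinal cord, with 15 libraries of each cell type. All animals were female C57BL/6 mice, and each cell type had 3 groups, which were naive mice (n = 4), mice with experimental autoimmune encephalomyelitis (EAE) given vehicle (n = 6) and mice with EAE given an inhibitor of the kinase RIPK1 (n = 5). EAE is a model of multiple sclerosis, induced here with the myelin peptide MOG in mice aged 8 to 10 weeks at immunization, and the age of the naive mice was not given in the sources used here. Dosing began at a clinical score of about 1 and lasted 3 days. The vehicle was 20% Captisol, and the inhibitor, GSK'547 in the labels and RIPK1inh-1 in the study, was given by oral gavage at 50 mg/kg, 2 times a day. Astrocytes were gated as GLAST-positive cells without CD11b, CD45 and CD140a, and microglia as CX3CR1-positive cells with CD11b and intermediate CD45. The sources used here give no vehicle dosing for the naive mice, so disease, immunization and dosing cannot be told apart in the comparison of vehicle-treated EAE with naive mice.

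Translation starts when eIF2, a GTPase of 3 subunits, carries the initiator tRNA to the small ribosomal subunit. eIF2B recharges eIF2 with GTP, and kinases that phosphorylate the alpha subunit of eIF2 block that step and so lower protein synthesis under stress, which is called the integrated stress response. eIF3 is the large scaffold on the small subunit, and the eIF4F complex, made of the cap-binding protein eIF4E, the helicase eIF4A and the scaffold eIF4G, brings in the mRNA unless 4E-BP proteins hold eIF4E. During elongation eEF1A delivers each aminoacyl-tRNA, the eEF1B subunits recharge eEF1A, and eEF2 moves the ribosome forward. Many messages for elongation factors and ribosomal proteins begin with a cytosine and a run of pyrimidines, a feature through which mTOR controls their translation.

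Values are log2 FPKM, that is fragments scaled to exon length and to the mapped fragments of the library, on a log scale, and they were normalized by the authors so that all 30 libraries have the same distribution. A difference of 1 is therefore a 2-fold difference. The number of genes with signal ranged from 8710 to 20398 in microglial libraries and from 6728 to 22981 in astrocyte libraries, and 4 libraries had fewer than 10000. These were microglia naive 4, astrocyte naive 2, astrocyte vehicle 1 and astrocyte RIPK1inh 5. Markers of both cell types fitted the labels, although all astrocyte libraries also held oligodendrocyte and neuronal signal. The mean of 10 microglial genes lay between 8.35 and 10.7 in microglial libraries and between 0.90 and 3.98 in astrocyte libraries, and the mean of 8 astrocyte genes lay between 7.85 and 9.39 in astrocyte libraries and between 0.99 and 2.12 in microglial libraries. These are bulk samples, in which fewer cells of a type and less RNA per cell cannot be told apart.

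The first transcribed bases of several members are shown because the members that rose most in microglia included elongation factors and eIF3 subunits. Of the 64 members, 50 matched a promoter in RefSeq (assembly GRCm38.p6), and each window below holds 10 bases before the annotated start and 20 bases from it, so that the 11th letter is the first transcribed base. For the 7 members with more than 1 start the first listed was used, whereas shares of all promoters count every start. Unbroken runs of at least 7 pyrimidines (C or T) were searched on the transcribed strand, and can share at most 1 letter with the E-box sought below. Capitals mark the run that holds the first transcribed base, and any other run is left in lower case. In 5 of the 50 members (10%) there was such a run at the first base, against 4.32% of all 32851 promoters. They were Eef1a1 at chr9:78481705-78481734 on the minus strand, Eif2s3x at chrX:94212632-94212661 on the minus strand, Eif3f at chr7:108934405-108934434 on the plus strand, Eif3l at chr15:79075213-79075242 on the plus strand and Eif2b5 at chr16:20498807-20498836 on the plus strand.
Eef1a1: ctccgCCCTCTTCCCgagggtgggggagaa
Eif2s3x: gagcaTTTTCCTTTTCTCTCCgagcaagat
Eif3f: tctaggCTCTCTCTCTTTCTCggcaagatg
Eif3l: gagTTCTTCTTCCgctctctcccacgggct
Eif2b5: CTCTTTCTCTCCCTgcaactacaccttcgc

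Further windows are shown for a member that was higher in microglia from EAE mice, Eef1b2, and for members that were lower. Eef1b2 starts at chr1:63176821-63176850, Eif4a2 at chr16:23107458-23107487, Eif1 at chr11:100319939-100319968 and Eif5 at chr12:111538091-111538120, all on the plus strand, and none of the 4 windows holds a pyrimidine run of that length. Eif3l and Eif2b5 above were not called in EAE microglia, and Eef1b2, Eif5b, Eif3a, Eif3b, Eif2ak2 and Eif5a were called higher without a run within 20 bases of the start.
Eef1b2: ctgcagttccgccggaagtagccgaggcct
Eif4a2: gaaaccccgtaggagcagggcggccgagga
Eif1: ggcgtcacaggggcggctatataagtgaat
Eif5: cgacgtgcatgcgagccaatgacaagagaa

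A run of at least 7 pyrimidines anywhere within 20 bases of the start was as frequent among the members (15 of 50, 30%) as among all promoters (30.6%). A cytosine followed by at least 4 pyrimidines at or next to the start, which overlaps such runs, was found in 6 of 50 members (12%) and in 6.32% of all promoters. The E-box CACGTG, which reads the same on both strands and is the motif bound by MYC-family factors, was found within the 300 bases around the start in 11 of 50 members (22%) and in 7.15% of all promoters. The 11 members were Eef1akmt4, Eef2, Eef2k, Eif1b, Eif3a, Eif3f, Eif3k, Eif4a1, Eif4g1, Eif4h and Eif5a2. These matches describe the sequence and were not tested for use.

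The first comparison set microglia from vehicle-treated EAE mice against microglia from naive mice. The eIF3 and eEF1 subunits that passed the test, and eEF2, were higher in EAE, whereas the eIF4A paralog Eif4a2, the start-codon factor Eif1, its partner Eif5 and the eEF2 kinase gene Eef2k were lower. Calls follow the thresholds of the study, a change of more than 1.5-fold with p under 0.05 before adjustment, and Benjamini-Hochberg adjusted values over all genes tested are given beside them. By this rule 22 of 64 members were called higher (34.4%), against 6.13% of all 28958 genes tested, and 5 were called lower (7.81%), against 5.86% of all genes. At an adjusted p under 0.05, 12 of the 64 members were higher and 1 was lower, against 1136 of all 28958 genes (3.92%) in either direction. The members are abundant genes. Restricting the background to the 10413 genes whose mean was 1 or more on the log2 scale gave 16.0% called higher and 12.9% called lower. The median difference over the 64 members was 0.62 on the log2 scale, against -0.02 over all genes.

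**Figure D1:**
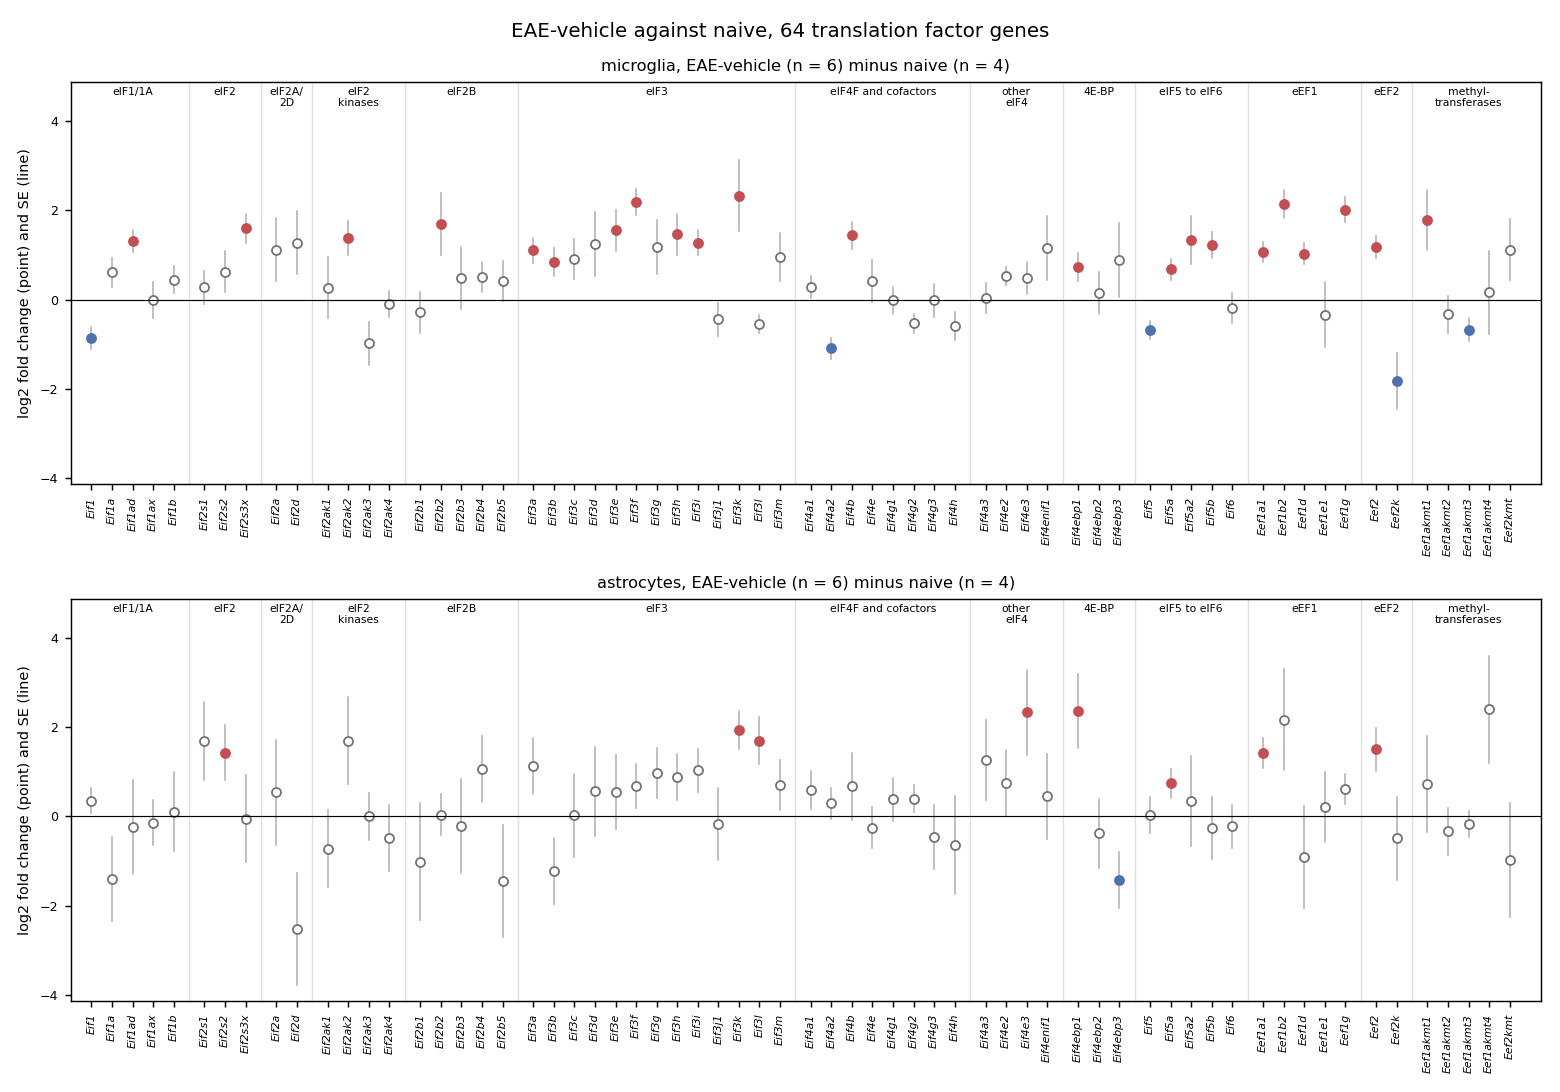
The difference in log2 FPKM between vehicle-treated EAE and naive mice for each member, ordered by complex, in microglia and in astrocytes, with bars for the standard error of the limma fit. In microglia 22 of the 64 members were called higher and 5 lower, and in astrocytes 8 were called higher and 1 lower.

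In the eIF2 group, which holds the GTPase and its regulators, the gamma subunit gene Eif2s3x was the subunit that passed the test in microglia. Its values in naive mice were 3.37, 3.22, 1.57 and 2.54 log2 FPKM, and the 6 vehicle-treated EAE mice ranged from 3.69 to 4.75 with a median of 4.31. All vehicle libraries lay above all naive libraries, and the difference was 1.60 ± 0.32 (SE; limma adjusted p = 0.0103; exact two-sided permutation p = 0.00476, the smallest that 210 splits can give). The alpha subunit gene Eif2s1, which the stress kinases phosphorylate, had a difference of 0.28 and the beta subunit gene Eif2s2 one of 0.63, and neither passed. Among the 4 kinases, Eif2ak2 (PKR, the interferon-induced sensor of double-stranded RNA) rose from 3.18, 1.95, 3.11 and 3.47 in naive mice to between 3.74 and 5.17 in vehicle-treated mice. The groups did not overlap, with a difference of 1.39 ± 0.38 (limma adjusted p = 0.0577). Eif2ak3 (PERK, the sensor of unfolded protein in the endoplasmic reticulum) had a difference of -0.98, which did not pass. The heme-regulated kinase gene Eif2ak1 and Eif2ak4 (GCN2, the sensor of uncharged tRNA) had differences of 0.27 and -0.09. Of the 5 eIF2B subunits, Eif2b2 passed at 1.69 ± 0.69 (limma adjusted p = 0.268), but its naive values were 4.58, 4.16, 4.06 and 0, and the call was lost without naive 4 or without vehicle 3. Eif2b5, the catalytic subunit, had a difference of 0.41.

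eIF3 was the complex with the most members called. Of its 13 measured subunits 7 were higher in microglia from EAE mice, 0 were lower, and the median difference was 1.18. Eif3f had naive values of 3.21, 3.51, 4.59 and 3.89 and vehicle values from 5.72 to 6.39 with a median of 6.00. The groups were more than 1 log2 unit apart at their nearest libraries. The difference of 2.19 ± 0.30, a 4.57-fold change, had the smallest adjusted p among the members (limma adjusted p = 4.51e-04; exact permutation p = 0.00476). The gene lies at chr7:108934417-108942951 on the plus strand, and its transcript opens with the pyrimidine run printed above.

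Eif3k, a small peripheral subunit, had naive values of 5.54, 5.35, 5.77 and 0.35 and vehicle values from 6.07 to 7.10. Its difference of 2.33 ± 0.80 (limma adjusted p = 0.158) rested in part on naive 4, the microglial library with fewer than 10000 genes with signal, where the gene was listed near 0. Without that library the difference was 1.03 ± 0.24 (limma adjusted p = 0.0263), and the naive and vehicle groups did not overlap in either case. Eif3e behaved alike, with naive values of 5.59, 4.71, 5.63 and 2.64 against vehicle values from 5.90 to 6.52, a difference of 1.55 ± 0.45 with naive 4 and of 0.89 ± 0.23 without it. The same library was the lowest naive library for Eif3h (2.85, against 4.29 to 5.64 in the other naive mice) and for Eif3i (3.38, against 4.38 to 5.12). The difference for Eif3h was 1.47 ± 0.46 (limma adjusted p = 0.106) with it and 0.91 ± 0.35 without it, and that for Eif3i was 1.28 ± 0.28 (limma adjusted p = 0.0150) with it and 0.95 ± 0.21 without it.

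The core subunits Eif3a, the largest of the complex, and Eif3b were higher by 1.11 ± 0.28 (limma adjusted p = 0.0416) and 0.84 ± 0.31 (limma adjusted p = 0.187). The call for Eif3b was lost without naive 2. To complete the complex, Eif3d, Eif3g, Eif3m and Eif3c had differences of 1.25, 1.18, 0.96 and 0.91 that did not pass, and Eif3j1 had one of -0.44. Eif3l differed by -0.54, below the fold cutoff, with naive values of 5.71, 5.83, 6.56 and 6.01 and vehicle values from 5.03 to 5.93. Thus 11 of the 13 subunits had a positive difference.

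**Figure D2:**
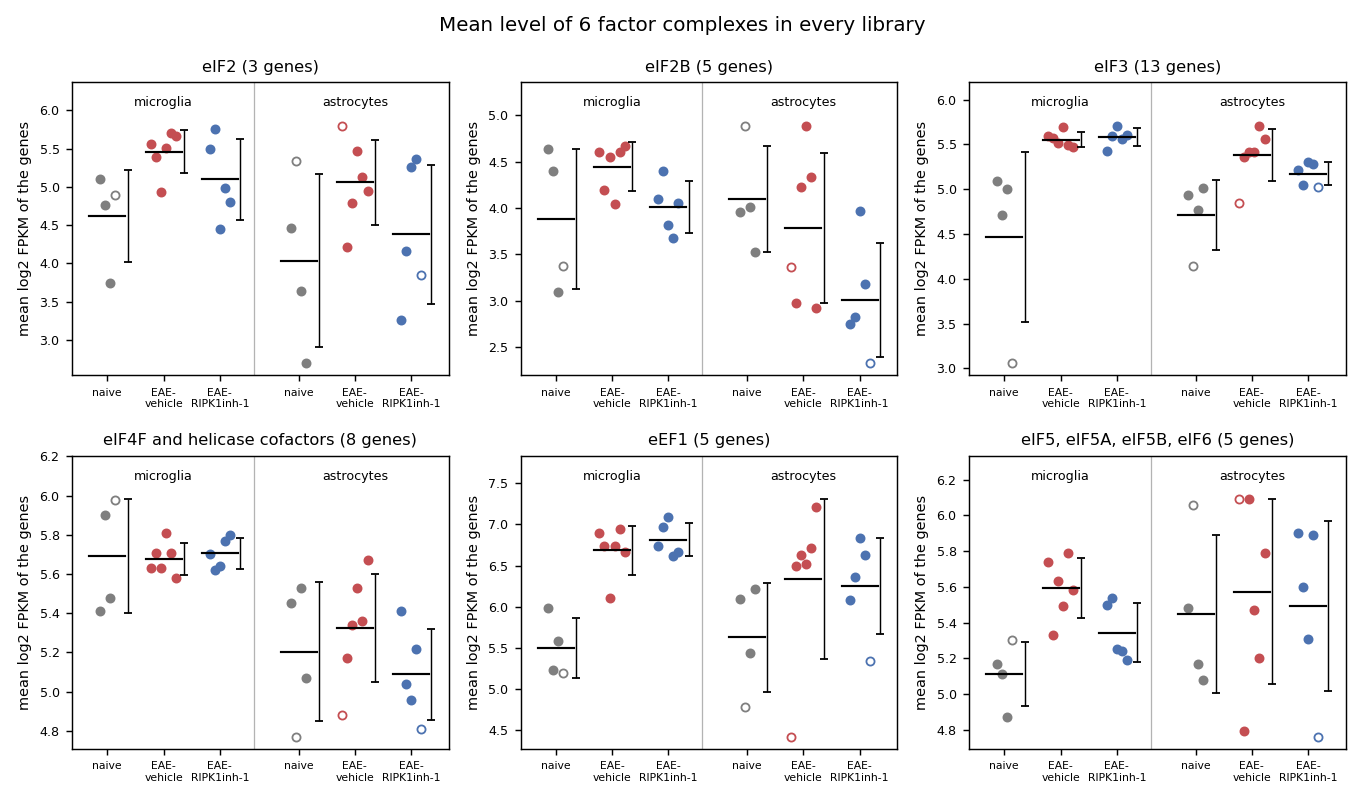
Mean log2 FPKM over the members of eIF2, eIF2B, eIF3, eIF4F, eEF1 and the eIF5 to eIF6 group in every library, by group and cell type. Lines mark group means, bars the SD, and open symbols the 4 libraries with fewer than 10000 genes with signal. In microglia the eIF3 mean was 5.47 to 5.69 in vehicle-treated mice and 3.06 to 5.09 in naive mice, while the eIF4F means of these groups overlapped.

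Averaged over its 13 subunits, eIF3 stood at 5.09, 4.71, 5.00 and 3.06 log2 FPKM in the 4 naive microglial libraries and between 5.47 and 5.69 in the 6 vehicle libraries. The mean over the 5 eEF1 genes was 5.98, 5.23, 5.58 and 5.20 in naive mice and 6.11 to 6.95 in vehicle-treated mice. By contrast, the mean over the 8 genes of the eIF4F group was 5.69 ± 0.29 (SD, n = 4) in naive and 5.68 ± 0.08 (SD, n = 6) in vehicle-treated mice.

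Within the eIF4F group single genes moved in opposite directions in microglia. Eif4b, the cofactor that stimulates the helicase, rose from 3.19, 4.26, 3.82 and 4.74 in naive mice to between 4.96 and 6.15 in vehicle-treated mice. The groups did not overlap, and the difference was 1.44 ± 0.31 (limma adjusted p = 0.0150). Eif4a2, one of the genes for the helicase itself, fell from 7.47, 7.60, 7.77 and 8.39 to between 6.34 and 7.21, a median of 6.62. Again no library overlapped, and the value fell by 1.09 ± 0.23 on the log2 scale (limma adjusted p = 0.0118; exact permutation p = 0.00476). Its paralog Eif4a1 did not pass, with a difference of 0.28, nor did the cap-binding protein Eif4e at 0.42 or the scaffold Eif4g1 at -0.01. Eif4g2, a scaffold relative that does not bind eIF4E, and the cofactor Eif4h had differences of -0.53 and -0.59 that did not pass, although Eif4g2 was called lower (-0.77 ± 0.16, limma adjusted p = 0.0159) without naive 4. Among the 3 genes for 4E-BPs, which hold eIF4E when mTOR is inactive, Eif4ebp1 was called higher by 0.73 ± 0.31 (limma adjusted p = 0.297), with naive values from 4.76 to 6.35 overlapping vehicle values from 5.64 to 6.73, and the call held in 9 of 15 fits that each left out 1 library.

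The helicase paralogs were also compared within each library. Eif4a2 exceeded Eif4a1 by 1.60 to 2.72 (mean 2.00 ± 0.50, SD) log2 units in naive microglia and by 0.23 to 1.35 (mean 0.63 ± 0.47) in vehicle-treated mice. The difference of -1.36 had an exact permutation p of 0.00952, or 0.0952 adjusted over the 20 paralog tests made. In astrocytes the excess was 2.25 ± 0.52 in naive and 1.94 ± 0.79 in vehicle-treated mice (exact permutation p = 0.548). The excess of Eif1 over its paralog Eif1b fell by 1.3 in microglia, from 3.46 ± 0.58 to 2.15 ± 0.56 (exact permutation p = 0.00952, adjusted 0.0952).

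**Figure D3:**
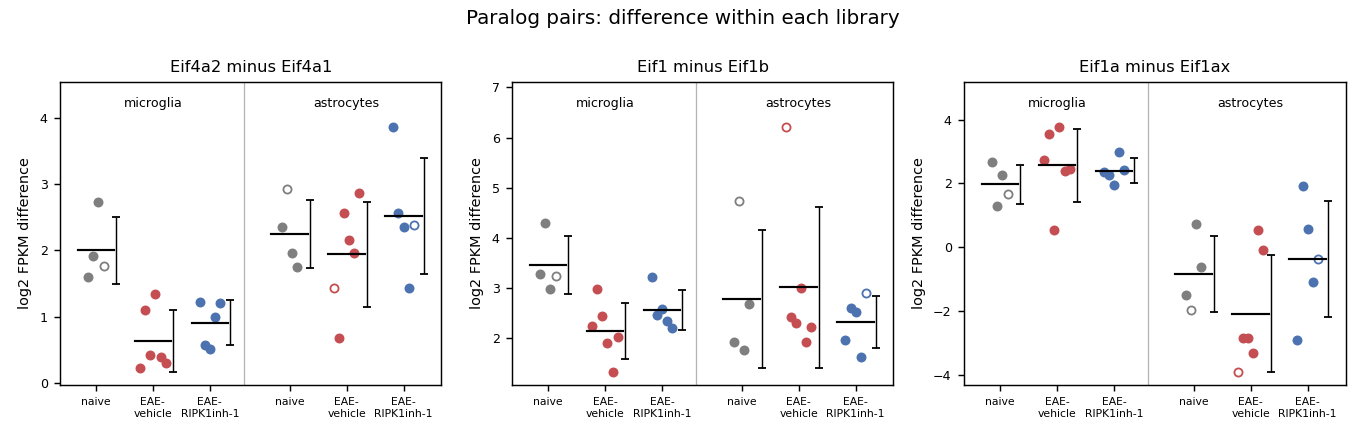
The difference in log2 FPKM between paralogs within each library, for the pairs of eIF4A, eIF1 and eIF1A genes in the 6 groups. In microglia the excess of Eif4a2 over Eif4a1 was 1.60 to 2.72 in naive mice and 0.23 to 1.35 in vehicle-treated EAE mice, without overlap.

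Start-codon selection and subunit joining showed changes both ways in microglia. Eif1, which guards the choice of start codon, had naive values of 7.74, 8.05, 8.33 and 7.79 and vehicle values from 6.74 to 7.62. It fell by 0.86 ± 0.24 (limma adjusted p = 0.0718), with no overlap. Eif5, the GTPase activator of eIF2, was also lower without overlap, at 7.63, 7.57, 7.46 and 7.52 in naive and 6.41 to 7.25 in vehicle-treated mice, and fell by 0.68 ± 0.21 (limma adjusted p = 0.0974). Higher were Eif5b, the GTPase that joins the ribosomal subunits (1.22 ± 0.29, limma adjusted p = 0.0259), Eif1ad, an eIF1A-domain protein (1.31 ± 0.24, limma adjusted p = 0.00453), and Eif5a, the hypusine-containing factor that helps stalled ribosomes (0.68 ± 0.23, limma adjusted p = 0.151). The call for Eif5a was lost without naive 1. Its paralog Eif5a2 was listed at or near 0 in all 4 naive libraries and between 0.05 and 3.34 in vehicle-treated mice, and it was called higher at 1.34 ± 0.53 (limma adjusted p = 0.247).

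Elongation factors were among the most abundant members, and in microglia 4 of the 5 eEF1 genes and eEF2 were called higher. Eef1b2, a nucleotide exchange subunit of eEF1B, had naive values of 5.76, 5.10, 6.12 and 4.20 and vehicle values from 7.21 to 7.69 with a median of 7.38. The lowest vehicle library was more than 1 log2 unit above the highest naive library, and the difference was 2.15 ± 0.31, a 4.43-fold change (limma adjusted p = 8.21e-04; exact permutation p = 0.00476). Eef1g, the structural subunit of eEF1B, rose from 5.00, 4.33, 4.19 and 3.02 to between 6.10 and 6.24, the narrowest vehicle range among the genes shown here by sample, by 2.02 ± 0.29 (limma adjusted p = 8.01e-04). Without naive 4 these differences were 1.78 ± 0.24 and 1.65 ± 0.21, and both remained past an adjusted p of 0.05. Eef1d, another exchange subunit, was higher by 1.03 ± 0.24 (limma adjusted p = 0.0217). The remaining gene counted in the group, Eef1e1, was included by its symbol, which does not make it a subunit of eEF1A or eEF1B. It had a difference of -0.34 and did not pass.

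Eef1a1, which encodes eEF1A and was the most abundant elongation factor shown here, had naive values of 8.63, 8.33, 9.18 and 9.77 and vehicle values from 9.73 to 10.27. The highest naive library, naive 4, reached just into the vehicle range. The difference was 1.07 ± 0.23, a 2.09-fold change (limma adjusted p = 0.0163; exact permutation p = 0.0143). Eef1a1 has many processed pseudogene copies and is marked in the annotation file as confounded, so its level is uncertain. The mark is on 38 of the 64 members (59.4%) and on 50.8% of all genes. Eef1b2, Eef1d, Eef2, Eif4a2, Eif5, Eef2k and Eif3a are among the members that carry it. The file does not define the mark.

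Eef2, the translocase, had naive values of 5.98, 5.93, 6.64 and 7.07 and vehicle values from 7.31 to 7.83, without overlap, and rose by 1.18 ± 0.24, a 2.26-fold change (limma adjusted p = 0.0113). Eef2k, whose product phosphorylates and inactivates eEF2, went the other way. Its naive values were 4.81, 5.08, 5.58 and 2.45 and its vehicle values 0.92 to 3.61 with a median of 2.96, so the groups overlapped through naive 4. It fell by 1.82 ± 0.62 on the log2 scale (limma adjusted p = 0.155; exact permutation p = 0.0571), and by 2.49 ± 0.54 without naive 4 (limma adjusted p = 0.0166). The methyltransferases Eef1akmt1 and Eef1akmt3, which modify lysines of eEF1A, were called higher by 1.78 ± 0.67 and lower by 0.67 ± 0.26, and both calls were lost without naive 4.

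Of the 27 calls in microglia 21 held in all 15 fits that each left out 1 library. Without the library naive 4, 26 members were called, 21 higher and 5 lower, of which 20 and 4 were among the calls above. Several cell-type and handling signals moved in the same comparison. The mean over the 10 microglial markers was 10.04 to 10.7 in naive and 8.42 to 8.92 in vehicle-treated microglia, without overlap, and 7 of the 10 were called lower. The mean over 12 immediate early and heat shock genes was 5.25 to 7.79 in naive and 2.19 to 3.90 in vehicle-treated microglia, and 10 of the 12 genes were called lower. The mean over 9 monocyte and neutrophil genes was 1.93 to 5.63 in naive and 3.62 to 6.74 in vehicle-treated mice, with 4 of 9 called higher, while 9 T cell genes stayed between 0.41 and 1.02 in both groups. The part of these signals in the differences above was not tested.

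**Figure D4:**
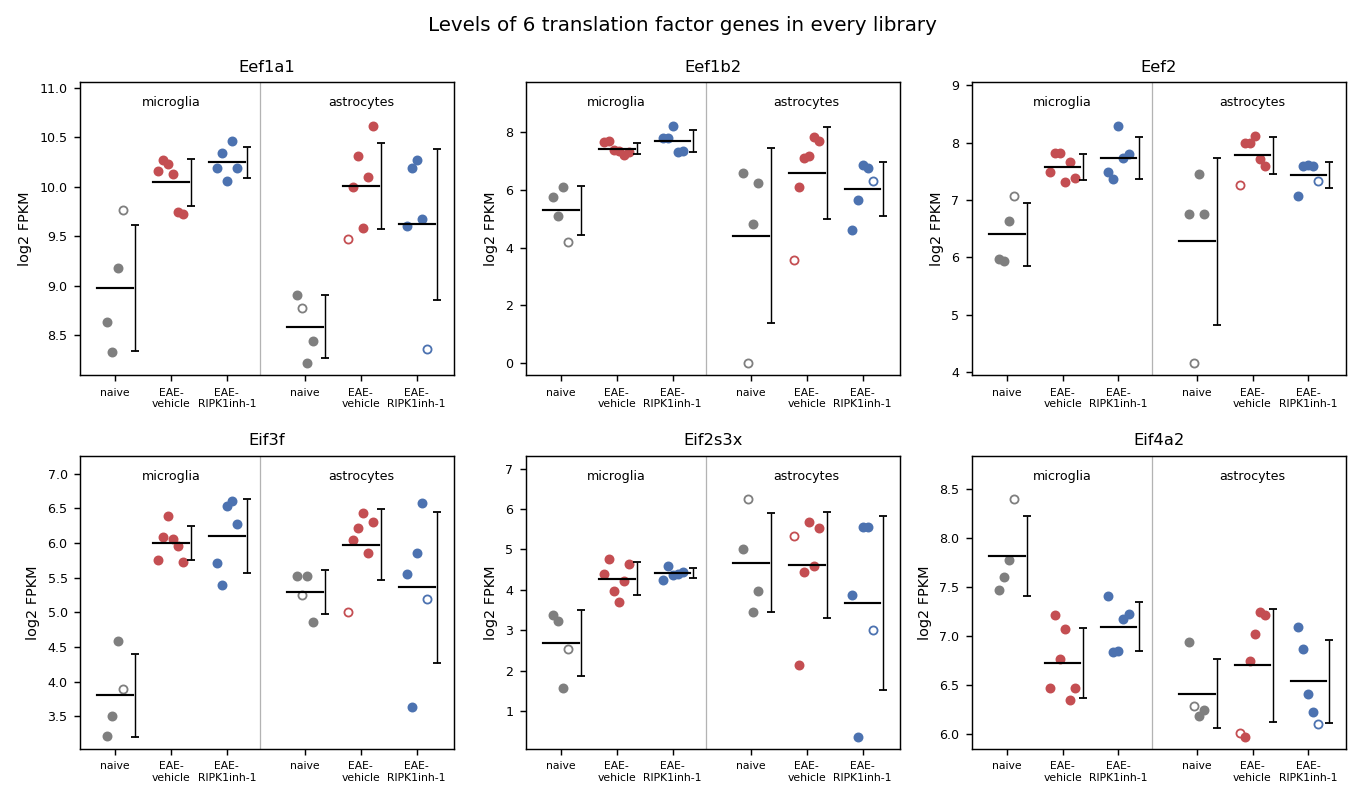
Log2 FPKM of single members in every library of the 6 groups. Lines mark group means, bars the SD, and open symbols the libraries with fewer than 10000 genes with signal. Eef1b2 and Eif3f were higher in all vehicle-treated EAE microglia than in all naive microglia, and Eif4a2 was lower.

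The second comparison made the same contrast in astrocytes. Fewer members passed. eEF1A, eEF2 and the eIF3 subunits Eif3k and Eif3l were higher in EAE, as were the 4E-BP gene Eif4ebp1 and the cap-binding paralog Eif4e3. Of the 64 members 8 were called higher (12.5%), against 2.69% of all 30718 genes tested, and 1 was called lower (1.56%), against 4.01% of all genes. In limma none had an adjusted p under 0.05 (smallest 0.0653), where 0.579% of all genes did, and 9 members had an unadjusted p under 0.05. Of the 11243 genes whose mean was 1 or more, 6.93% were called higher and 9.02% lower. The median difference over the members was 0.35, against 0.03 over all genes.

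Eef1a1 had naive values of 8.91, 8.78, 8.22 and 8.44 in astrocytes and vehicle values from 9.47 to 10.62 with a median of 10.05. The groups did not overlap, and the difference was 1.42 ± 0.33, a 2.68-fold change (limma adjusted p = 0.0816; exact permutation p = 0.00476). Eef2 had naive values of 6.75, 4.16, 7.45 and 6.76 and vehicle values from 7.27 to 8.11. The lowest, naive 2, is one of the libraries with fewer than 10000 genes with signal, and the difference of 1.5 ± 0.48 (limma adjusted p = 0.302) became 0.89 ± 0.24 without the low-signal astrocyte libraries. The exchange subunit Eef1b2 ranged from 0 to 6.59 in naive and from 3.58 to 7.84 in vehicle-treated mice and did not pass at 2.17, and Eef1g did not pass at 0.61, although without the low-signal libraries it was called higher at 0.79 ± 0.31.

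Of the 13 eIF3 subunits 2 were called higher in astrocytes and 11 had a positive difference, with a median of 0.70. Eif3k had naive values of 5.93, 3.85, 5.08 and 6.15 and vehicle values from 6.57 to 7.74. No library overlapped, and the difference was 1.94 ± 0.43, a 3.84-fold change (limma adjusted p = 0.0653; exact permutation p = 0.00476). Eif3l had naive values of 5.35, 4.17, 2.65 and 4.65 and vehicle values from 5.17 to 6.98, with a slight overlap and a difference of 1.70 ± 0.52 (limma adjusted p = 0.264). Eif3f, the leading subunit in microglia, had a difference of 0.69 and Eif3i one of 1.03, and neither passed.

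In the eIF4 group of astrocytes the changes were in the eIF4E-binding and cap-binding genes. Eif4ebp1 had naive values of 1.26, 0.60, 2.59 and 1.03 and vehicle values from 0.59 to 5.13 with a median of 4.04. It had signal in 3 of 4 naive and 6 of 6 vehicle libraries. The groups overlapped through 1 vehicle library at 0.59, and the difference was 2.36 ± 0.82 (limma adjusted p = 0.390; exact permutation p = 0.0429). Without the low-signal libraries it was 1.83 and was not called. Eif4e3 was listed at 0.03, 0.26, 0.15 and 0.18 in naive mice, with signal in 1 of 4 libraries, and ranged from 0.42 to 5.24 in vehicle-treated mice (difference 2.33 ± 0.95; limma adjusted p = 0.563). Eif4ebp3 was the member called lower, by 1.42 ± 0.62 (limma adjusted p = 0.646), with signal in 3 of 4 naive and 1 of 6 vehicle libraries, and its call held in 8 of 15 fits that left out 1 library. None of the 8 eIF4F genes passed.

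In the eIF2 group of astrocytes Eif2s2 was called higher by 1.43 ± 0.62 (limma adjusted p = 0.629), with naive values of 3.83, 6.26, 3.95 and 1.91 and vehicle values from 4.99 to 6.25. The groups overlapped through naive 2, and without the low-signal libraries the difference was 2.02 ± 0.49. Eif2s1 did not pass at 1.69, with naive values from 2.22 to 4.55 and vehicle values from 4.30 to 5.83. No eIF2B subunit passed. Eif5a was called higher by 0.74 ± 0.32 (limma adjusted p = 0.637) and kept its call in 9 of 15 fits.

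With library quality weights 17 members were called, 16 higher and 1 lower, with 5.42% of all genes called higher and 6.62% lower and a smallest limma adjusted p of 0.0095 among the members. The calls for Eef1a1, Eef2, Eif3k, Eif3l and Eif4ebp1 held in all 15 fits that left out 1 library. Without the astrocyte libraries naive 2, vehicle 1 and RIPK1inh 5, 10 members were called higher and 0 lower, and 7 of the 10 were among the calls above. Eef1a1 then had a difference of 1.60 ± 0.25 (limma adjusted p = 0.00862). Markers of other cells moved in the same comparison. The mean over 9 T cell genes was 0.34 to 1.27 in naive and 1.40 to 5.79 in vehicle-treated astrocyte libraries, with 7 of 9 called higher, and the mean over the monocyte and neutrophil genes was 0.16 to 1.52 and 1.79 to 4.73, with 6 of 8 tested called higher. The mean over 7 oligodendrocyte genes was 6.19 to 7.39 in naive and 6.38 to 9.91 in vehicle-treated mice. Microglial markers ranged from 0.90 to 2.26 in naive and from 1.69 to 3.98 in vehicle-treated mice, and astrocyte markers from 8.80 to 9.39 and from 7.85 to 8.90. The immediate early and heat shock mean was 1.04 to 1.85 in naive and 1.73 to 3.56 in vehicle-treated mice, with 5 of 12 genes called higher, the opposite direction to microglia. The part of these signals in the astrocyte differences was not tested.

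A fit over both cell types tested whether the EAE difference of a member was unlike in microglia and astrocytes. It called 5 of 64 members (7.81%) with a larger difference in microglia, against 4.97% of all 30952 genes, and 4 (6.25%) with a smaller one, against 3.71%. Of genes with a mean of 1 or more, 10.3% and 7.03% were called. The members did not exceed that set, which was not matched to them in abundance. With library quality weights 14 members were called, 6 and 8. Of all genes, 5.9% and 5.39% were then called. Without weights, 1 of the 64 members had an adjusted p under 0.05, against 304 of all 30952 genes (0.982%). Of all genes called here 57.2% were on the microglial side, and 44.3% once libraries were centred on their medians, when 4 members stood on each side and the median over all genes moved from -0.05 to -0.18. That member was Eif3l, which had a difference of -0.54 in microglia and 1.70 in astrocytes, so that the 2 differences were 2.24 ± 0.56 apart, with the lower one in microglia (limma adjusted p = 0.0450). Eif4a2 was next on that side at -1.37 ± 0.41 (limma adjusted p = 0.113), being lower by 1.09 in microglia and at 0.29 in astrocytes, followed by Eif1 at -1.21 ± 0.38 (limma adjusted p = 0.144) and Eif4g2 at -0.92 ± 0.36 (limma adjusted p = 0.333). On the other side Eef1g had a difference larger in microglia by 1.41 ± 0.42 (limma adjusted p = 0.123) and Eif3f by 1.51 ± 0.57 (limma adjusted p = 0.303). Eif3b, Eif2d, which encodes a factor that can place tRNA without eIF2, and Eif4ebp3 were the other members called. The difference of Eef1a1 was 1.07 in microglia and 1.42 in astrocytes, and it was not called here.

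The third set of comparisons asked whether members differed between RIPK1 inhibitor and vehicle in mice with EAE. In microglia 0 members were called higher, against 1.06% of all genes tested, and 1 lower (1.56%), against 0.701% of all genes and 1.62% of those with a mean of 1 or more. No member had an adjusted p under 0.05 in limma (smallest 0.930), where 0.00345% of all genes did. The member called was the eIF3 core subunit Eif3b, with inhibitor values of 3.94, 3.89, 4.28, 3.77 and 3.79 and vehicle values from 3.99 to 5.66. The groups overlapped in 1 inhibitor library, the difference was -0.63 ± 0.29 (limma adjusted p = 0.930; exact two-sided permutation p = 0.0216), and the call held in 5 of 15 fits that left out 1 library. With library quality weights 11 members were called, 4 higher and 7 lower, while 5.16% of all genes were then called higher and 4.27% lower. Eif4a2 was the member with the smallest adjusted p in that fit (0.60 ± 0.13, limma adjusted p = 0.0634), and Eif3b was again lower (-0.95 ± 0.26).

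Of the members that were raised in EAE microglia, Eif3b was the one that passed between treatments in the unweighted fit, and Eif5b, Eef1akmt1 (lower) and Eif3h (higher) passed besides it with weights. Eef1a1 stood at 10.19, 10.34, 10.06, 10.46 and 10.19 with inhibitor, inside and just above the vehicle range of 9.73 to 10.27, a difference of 0.21 ± 0.22. Eef1b2 stood at 7.81, 7.82, 8.24, 7.33 and 7.34 (difference 0.27 ± 0.29), and Eif3f at 5.71, 5.39, 6.53, 6.60 and 6.27 (difference 0.10 ± 0.28). The naive values of these genes lay below, with 1 naive library of Eef1a1 at 9.77. Eif2s3x and Eef2 had differences of 0.14 ± 0.30 and 0.15 ± 0.23. Eif4a2, which was lower in EAE, stood at 7.40, 6.83, 6.84, 7.17 and 7.22 with inhibitor against 6.34 to 7.21 with vehicle, a difference of 0.37 ± 0.21 that did not pass (limma adjusted p = 0.930). All 5 eIF2B subunits had negative differences, from -0.87 for Eif2b5 to -0.06, and none passed. In the microglial libraries the monocyte and neutrophil mean was 2.89 to 8.01 with inhibitor and 3.62 to 6.74 with vehicle. The T cell mean was 0.10 to 2.16 and 0.46 to 1.02, and both means were highest in RIPK1inh 3. No gene of either list was called. Called higher were 2 of 10 microglial markers and 1 of 12 immediate early and heat shock genes, with 0 lower. The part of these signals in the inhibitor differences was not tested. 

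**Figure D5:**
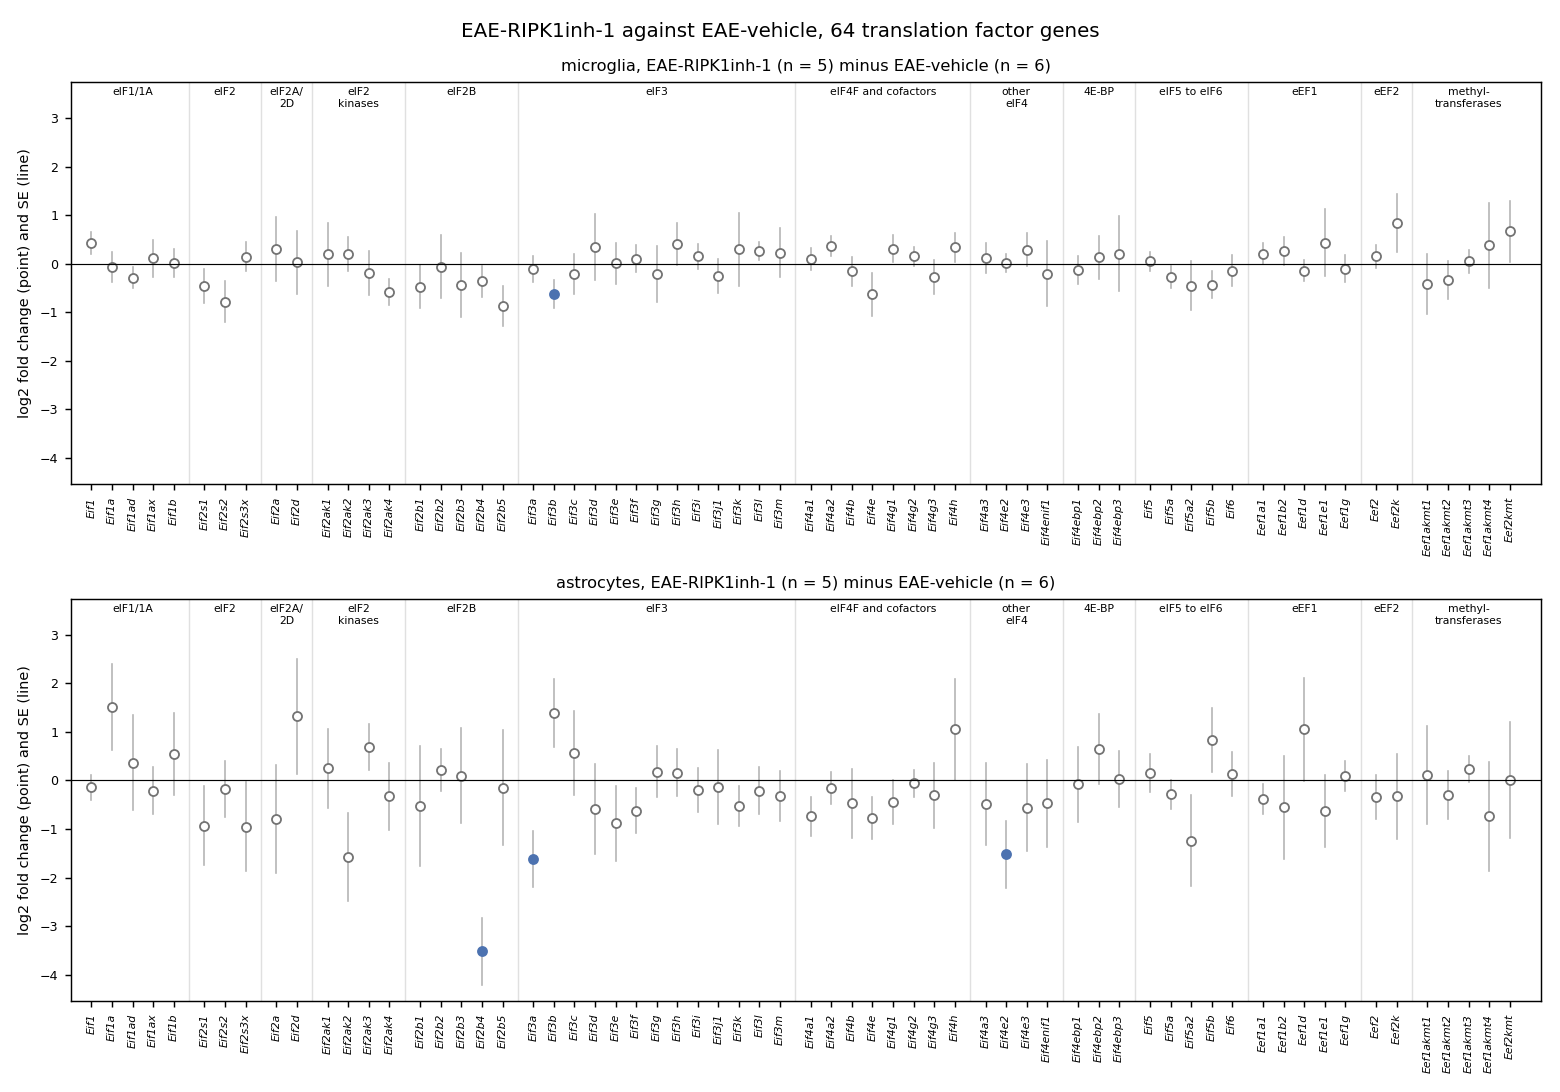
The difference in log2 FPKM between inhibitor-treated and vehicle-treated EAE mice for each member, ordered by complex, in microglia and in astrocytes, with bars for the standard error of the limma fit. In microglia 1 member was called lower, and in astrocytes 3 were called lower, with Eif2b4 at -3.52.

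In astrocytes 0 members were called higher with inhibitor, against 1.84% of all genes, and 3 were called lower (4.69%), against 1.18% of all genes and 2.7% of those with a mean of 1 or more. In limma 0 of all 30718 genes (0%) had an adjusted p under 0.05, 998 had an unadjusted p under 0.05, and the smallest adjusted p was 0.840. Eif2b4, the delta subunit of eIF2B, stood at 1.35, 0.09, 3.83, 3.44 and 0.15 with inhibitor, with signal in 3 of 5 libraries, and between 4.61 and 6.52 with vehicle. No library overlapped, and the difference was -3.52 ± 0.69 (limma unadjusted p = 1.36e-04, adjusted 0.840; exact permutation p = 0.00216, the smallest that 462 splits can give). The naive astrocytes stood at 3.81, 4.74, 3.59 and 4.78. Eif3a stood at 4.05, 2.81, 4.24, 4.93 and 4.19 with inhibitor and between 4.94 and 6.10 with vehicle, also without overlap, and differed by -1.62 ± 0.58 (limma adjusted p = 0.840; exact permutation p = 0.00216). Both calls held in all 15 fits that left out 1 library. Eif4e2, a cap-binding paralog that represses translation, stood at 4.87, 5.58, 4.22, 5.88 and 1.29 against 5.06 to 6.63. The lowest was RIPK1inh 5, a low-signal library, and the call (-1.52 ± 0.69) held in 6 of 15 such fits and was absent without the low-signal libraries. In microglia the differences of Eif2b4 and Eif3a were -0.36 and -0.11 and did not pass. The median over the members was -0.21 in astrocytes, against -0.03 over all genes, and 0.02 in microglia. In the astrocyte libraries the mean over 6 neuronal genes was 3.88 to 5.34 with inhibitor and 5.26 to 6.07 with vehicle, and 1 of the 6 was called lower. The monocyte and neutrophil mean was 1.57 to 5.63 and 1.79 to 4.73, and the T cell mean 1.39 to 5.47 and 1.40 to 5.79, with no gene of either list called. Their part in the inhibitor differences was not tested.

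Naive microglia and naive astrocytes were compared with each other, as the groups without EAE. Of the 64 members 9 were higher in microglia (14.1%), against 10.0% of all 30952 genes, and 8 lower (12.5%), against 9.64%. An adjusted p under 0.05 was reached by 12 of the 64 members and by 3672 of all 30952 genes (11.9%). Of the 11489 genes whose mean was 1 or more, 22.6% were higher and 19.3% lower. By the share called, the members did not stand above this set, which was not matched to them in abundance. The member with the largest difference was Eif4ebp1, at 4.76, 5.54, 5.97 and 6.35 in microglia and 1.26, 0.60, 2.59 and 1.03 in astrocytes. It had signal in 4 of 4 microglial and 3 of 4 astrocyte libraries. The cell types did not overlap, and the difference was 4.29 ± 0.68 (limma adjusted p = 3.06e-05). Eif4e3 was at 4.35, 3.15, 3.92 and 3.07 in microglia and at or near 0 in astrocytes, with a fitted difference of 3.47 ± 0.80 (limma adjusted p = 0.00278). The kinase gene Eif2ak3 was at 2.64, 3.13, 2.40 and 3.95 in microglia and had signal in 1 of 4 astrocyte libraries, at 1.21, with a fitted difference of 2.59 ± 0.56 (limma adjusted p = 0.00139). Both helicase genes were higher in microglia, Eif4a1 by 1.64 ± 0.36 and Eif4a2 by 1.39 ± 0.31 (limma adjusted p = 0.00149 and 0.00221), and so was Eif3l by 1.82 ± 0.43 (limma adjusted p = 0.00361).

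Lower in naive microglia than in naive astrocytes were the eIF3 subunits Eif3f (-1.49, limma adjusted p = 0.0229), Eif3i (-1.40, 0.0335) and Eif3h (-1.35, 0.123), the elongation subunit gene Eef1g (-1.15, 0.0175), Eif2b2 (-2.04, 0.0378) and Eif1ax (-1.73, 0.0179). Eif2s3x (-1.99) and Eif5a2 (-2.06) were also called lower, with limma adjusted p of 0.141 and 0.167. This comparison and that of EAE with naive microglia share the 4 naive microglial libraries, so that Eif3f, at -1.49 here and 2.19 there, and Eef1g, at -1.15 and 2.02, rest on the same naive values. Naive 4 was the lowest of them for Eif3h, Eif3i, Eef1g and Eif2b2. Without the low-signal libraries 19 members were called between the naive cell types, 13 of them among the 17 above. The immediate early and heat shock genes were at 5.25 to 7.79 in naive microglia and 1.04 to 1.85 in naive astrocytes. Of these 12 genes 11 were called higher in microglia. Markers of other cells also differed. The oligodendrocyte mean was 1.72 to 2.28 in naive microglia and 6.19 to 7.39 in naive astrocytes. Of its 7 genes 5 were called lower in microglia. The neuronal mean was 0.22 to 0.71 and 4.30 to 5.41, with 5 of 6 called lower. The mean over 5 erythrocyte genes was 0.14 to 4.48 and 3.88 to 8.67, with 5 of 5 called lower. Of 9 monocyte and neutrophil genes 3 were called higher. The part of these signals was not tested. Eif1a exceeded its paralog Eif1ax by 1.97 ± 0.61 in naive microglia, whereas it was at -0.84 ± 1.18 relative to Eif1ax in naive astrocytes.

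Other genes of the translation pathway were read from lists of their own. Their counts stand against 6.13% of all genes called higher and 5.86% lower in EAE microglia, or 16.0% and 12.9% of genes with a mean of 1 or more, and against 2.69% and 4.01%, or 6.93% and 9.02%, in astrocytes. In EAE microglia 1 of 6 poly(A)-binding protein genes was called higher, Pabpc1, whose product links the tail of an mRNA to eIF4G, at 1.81 ± 0.33 (limma adjusted p = 0.00453), and 0 were lower. Of 22 tRNA synthetase genes 7 were higher and 0 lower, among them Hars at 2.14, Lars at 2.03 and the scaffold gene Aimp1 at 1.90. Of 11 termination and recycling genes 3 were higher and 0 lower, namely Mcts1 and Denr, whose products act together in recycling, at 0.96 and 0.59, and the release factor gene Etf1 at 0.70. Of 14 genes of the mTOR axis 1 was higher (Larp1, which binds messages with a 5' pyrimidine run, at 0.81) and 2 were lower, the mTORC1 scaffold gene Rptor at -1.75 (limma adjusted p = 0.0177) and the eIF4E kinase gene Mknk1 at -1.25.

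Of 17 targets of the integrated stress response 5 were higher in EAE microglia and 1 lower. The asparagine synthetase gene Asns (2.67, limma adjusted p = 0.00821) and the serine synthesis gene Psat1 (2.12, limma adjusted p = 0.0489) were higher, and the mTOR inhibitor gene Ddit4 was lower at -1.71. In astrocytes the counts were 1 higher and 0 lower for the poly(A)-binding proteins (Pabpc1 at 1.26, limma adjusted p = 0.400), 0 and 0 for termination genes, 0 and 0 for the 22 synthetases, 0 and 2 for the mTOR axis (Rps6kb2 at -2.60 and Tsc1 at -2.32) and 1 and 1 for the stress targets (Nupr1 at 6.56, limma adjusted p = 4.79e-04, and Slc3a2 at -2.44). With inhibitor in microglia 1 synthetase gene was lower and 1 stress target, the transcription factor gene Atf4, was higher at 0.90 ± 0.41 (limma adjusted p = 0.930), and the other lists had 0 calls. With inhibitor in astrocytes the counts higher and lower were 0 and 0 for the poly(A)-binding proteins, 2 and 2 for termination and 0 and 2 for the synthetases. They were 0 and 1 for the mTOR axis and 2 and 1 for the stress targets. None of these had an adjusted p under 0.05. The shares of all genes called higher and lower with inhibitor were 1.06% and 0.701% in microglia and 1.84% and 1.18% in astrocytes. Among genes with a mean of 1 or more they were 2.02% and 1.62%, and 3.52% and 2.7%.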

How the data were processed

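RNA sequencing of 30 libraries from sorted spinal cord microglia and astrocytes was used. The cDNA was primed with oligo(dT) and amplified by PCR. The authors deposited 1 table of log2 FPKM values, made in OmicSoft Array Studio and quantile normalized so that every library has the same distribution. The aligner, the gene model release and the number added before the logarithm are not given in the sources used here. The deposited values hold no counts, so depth is unknown, and the number of genes with signal is given instead. Genes without signal hold values that rise with file order. The highest such value was 2.74 in astrocyte vehicle 1, 1.74 in microglia naive 4, 1.69 in astrocyte naive 2 and 1.18 in astrocyte RIPK1inh 5. In the other libraries it was at most 0.87, the value of microglia vehicle 3.

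Members were found by symbol in the annotation table, and their start and end were the same as in GENCODE vM21 (GRCm38) for 64 of 64. Members and lists were chosen with earlier results of these data known. The 3 groups of a cell type were fitted together with limma 3.58.1 in R 4.3.3 (variance trend, unpaired), and all 30 libraries for the comparisons across cell types. The methods of the study name a paired test, but no label says what would pair the samples. Calls needed a change of more than 1.5-fold and p under 0.05, and Benjamini-Hochberg adjustment ran over all genes. Exact permutation tests are two-sided. The study gives its group sizes as mice. Which microglial and astrocyte libraries share a mouse is not given in the labels, so the fits over both cell types treat them as independent. Genes of constant value in a fit were not tested. The scripts were tested on simulated data.

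Named genes were up to 12 called members in each direction within a cell type, 6 in each direction for the cell type and interaction comparisons, a set list of 14 members of interest of which Eef1a2 was not analysed here, paralogs, and up to 3 genes of each pathway list by size of called change. Other members are named to complete their complex. Alternatives were a filter at a mean log2 value of 1, centring on medians, library quality weights, no variance trend, values without signal set to 0, 1 added on the linear scale, the number of genes with signal as a covariate, a replicate block and leaving out each library. Leaving out the 4 libraries with fewer than 10000 genes with signal, and calling at an adjusted p under 0.05, were chosen after seeing the data.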

Additional observations from a re-analysis of the deposited data

Results flagged for a closer look

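The mean level of each complex was searched in 78 groups of libraries for a single library far from the rest of its group, by Dixon's criterion, which flags about 1 group in 20 by chance. It found 9. In microglia, the mean over Eif2a and Eif2d was 0.05 in naive 4 and 3.12 to 3.71 in the other naive mice. The eEF1 mean was 6.11 in vehicle 3, where Eef1e1 was listed at 0, and 6.67 to 6.95 in the other vehicle mice. The eIF1 mean was 4.73 in vehicle 2 against 5.04 to 5.16, and the 4E-BP mean was 4.61 in RIPK1inh 3 against 2.72 to 3.26. RIPK1inh 3 also had the highest monocyte and neutrophil mean of the microglial libraries, at 8.01. In astrocytes, the mean over the elongation factor modifiers was 1.26 in naive 4 against 2.75 to 2.94 and 1.82 in RIPK1inh 1 against 2.71 to 3.01. The eEF1 mean was 4.42 in astrocyte vehicle 1, where Eef1d was listed at 0, against 6.50 to 7.21. The mean over Eif2a and Eif2d was 5.45 in astrocyte vehicle 5 against 1.71 to 2.36, and the 4E-BP mean was 0.25 in astrocyte vehicle 2 against 1.72 to 2.21. Microglia naive 4 and astrocyte vehicle 1 are libraries with fewer than 10000 genes with signal.

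The EAE difference was unlike in the 2 cell types, by the interaction term of limma at an unadjusted p under 0.05, for 9 members. The values are the difference in microglia minus that in astrocytes. They were -2.24 for Eif3l, -1.37 for Eif4a2, -1.21 for Eif1, -0.92 for Eif4g2, 1.41 for Eef1g, 1.51 for Eif3f, 2.08 for Eif3b, 2.30 for Eif4ebp3 and 3.80 for Eif2d. After adjustment over all genes Eif3l remained past 0.05 (limma adjusted p = 0.0450), and the other adjusted values were 0.113 to 0.509. Eif2d had signal in 3 of 4 naive and 6 of 6 vehicle microglial libraries and in 4 of 4 naive and 3 of 6 vehicle astrocyte libraries.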

How the results depend on the processing

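Of 75 differences of named members, the 35 that were called kept their direction under the alternatives run, and 9 of the 40 that were not called changed sign, all within 0.25 of 0 as reported (Eif2ak2, Eif2ak3, Eif3a and Eif3e for inhibitor in microglia, Eif2b5 and Eif4ebp1 for inhibitor in astrocytes, Eif2ak3 and Eif4e for EAE in astrocytes, and Eif4g1 for EAE in microglia). Calling at an adjusted p under 0.05 gave 13 members for EAE in microglia, 0 for EAE in astrocytes, 0 for inhibitor in microglia, 0 for inhibitor in astrocytes and 1 for the interaction. Library quality weights gave 11 members for inhibitor in microglia, 17 for EAE in astrocytes and 14 for the interaction, against 1, 9 and 9 without weights. The 1 member called for inhibitor in microglia was 0 under the filter at a mean of 1, centring, values without signal set to 0, the covariate for genes with signal, and without the 4 low-signal libraries. Leaving out each library gave 26 to 33 members for EAE in microglia, 7 to 11 for EAE in astrocytes, 0 to 3 for inhibitor in microglia, 2 to 5 for inhibitor in astrocytes, 16 to 18 for the naive cell types and 7 to 11 for the interaction. The count for inhibitor in microglia was 0 without naive 3, naive 4, vehicle 1, vehicle 5, vehicle 6 or RIPK1inh 5, 2 without vehicle 4 or RIPK1inh 1, and 3 without RIPK1inh 2, and that for inhibitor in astrocytes was 5 without RIPK1inh 4. Centring moved the share of interaction calls over all genes that were higher from 57.2% to 44.3%. The cause of these changes was not tested. The replicate block gave 24 members for EAE in microglia, 11 for EAE in astrocytes, 1 and 3 for inhibitor, 18 for the naive cell types and 9 for the interaction. Same-numbered naive and vehicle microglia deviated together with r of 0.272, 0.0479, 0.118 and 0.0426 over 2305 genes. For vehicle and inhibitor microglia r was 0.269, -0.0133, 0.21, -0.115 and 0.178. Without differently numbered samples beside them, these values cannot show whether the numbers pair samples. Low signal limits what can be read from members listed near 0 or below the highest value without signal in their library.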
